A study of Mus musculus with 6 samples.

Results

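Cytochrome P450 families 1 to 3 were examined in mouse liver as the genes whose symbols carry a family number from 1 to 3, a subfamily letter and a gene number. Among 24421 rows in each count table, 60 symbols had this form, and 59 were members after the 1 exception that the selection rule makes. The selection rule uses names alone and no measured value, but the members were chosen with earlier results of these data known. Of the 59 members, 44 had enough counts to be tested among 12622 genes. Another 12 had reads but stayed under the filter on low counts, and 3 (Cyp2b19, Cyp2w1 and Cyp3a41b) had 0 counts in all 6 libraries. A total of 0 in the 61014175 gene reads of the 6 libraries allows a level of up to 0.0492 CPM (3 counts, counting error only). This limit holds for Cyp2b19 and Cyp2w1 and not for Cyp3a41b, whose transcript is nearly all shared with a near copy.

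These enzymes sit in the endoplasmic reticulum, bind heme and insert an oxygen atom into drugs, pollutants, steroids, bile acids and fatty acids, with electrons passed on by P450 oxidoreductase. In hepatocytes many of them are switched on by ligand-sensing receptors: the aryl hydrocarbon receptor for family 1, the constitutive androstane receptor (CAR) for Cyp2b and Cyp2c genes, and the pregnane X receptor (PXR) for Cyp3a genes. In mouse liver several members are also known to be expressed more in one sex, under the pattern of growth hormone release, and several are concentrated in hepatocytes around the central vein.

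The libraries were made from total liver RNA of Townes mice at 7 months of age. The 3 AS libraries carry the alpha-globin allele Hbatm1(HBA)Tow, in which human alpha-globin replaces the mouse genes, the sickle beta-globin allele Hbbtm2(HBG1,HBB*)Tow and, on the other chromosome, the normal human beta-globin allele Hbbtm3(HBG1,HBB)Tow. The 3 SS libraries carry Hbatm1(HBA)Tow and, at the beta-globin locus, the sickle allele Hbbtm2(HBG1,HBB*)Tow alone. Both groups therefore share the humanised globin loci, and AS is not a wild type. The labels give no treatment, sex, litter or batch and do not state that replicates were separate animals, so every p-value reflects the spread among these 6 samples and no more.

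Gene reads per library ran from 6670011 to 13700194. AS replicates 2 and 3 lay closest together (the chi-square statistic averaged 4.05 a gene; the other library pairs gave 29.2 to 170.3), which is still above the value of about 1 that sampling alone gives. The defining hepatocyte genes were abundant, with summed levels of 88048 to 141358 CPM in AS and 70496 to 107758 CPM in SS. CPM, counts per 1000000 gene reads, was taken after scaling between libraries by TMM, and values below are listed in the order of replicates 1, 2 and 3.

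The sequences shown next are those of the promoters in which members of different expression pattern share a short element. CAAAGTCCA, a sequence that hepatocyte nuclear factor 4 alpha is known to bind, was found on either strand within 250 bases upstream of the RefSeq start of 9 of the 51 members with a RefSeq promoter (17.6%), against 103 of 27025 mouse promoters (0.381%). The 9 were Cyp2c40, Cyp2c65, Cyp2c67, Cyp2c68, Cyp2c69, Cyp3a11, Cyp3a16, Cyp3a41a and Cyp3a41b, which belong to a pair of clusters of near copies and so are not independent cases. Capitals mark the element, each window is 29 bases on the minus strand of GRCm38.p6 and is printed 5′ to 3′.
Cyp3a11, chr5:145879945-145879973: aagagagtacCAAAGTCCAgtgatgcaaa
Cyp3a16, chr5:145469804-145469832: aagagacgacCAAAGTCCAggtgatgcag
Cyp3a41a, chr5:145720213-145720241: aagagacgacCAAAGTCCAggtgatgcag
Cyp3a44, chr5:145805951-145805979: aagatacgacCAAAGTACAggtgatgcag
Cyp2c40, chr19:39812841-39812869: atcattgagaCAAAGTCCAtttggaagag
Cyp2c67, chr19:39649149-39649177: atcattgagaCAAAGTCCAtttggaagca
Cyp2c68, chr19:39741160-39741188: atcattgaaaCAAAGTCCAattggaagag
Cyp2c69, chr19:39886826-39886854: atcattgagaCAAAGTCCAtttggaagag

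The windows lie upstream of the RefSeq starts, and that of Cyp3a11 reaches into the first exon of the longer GENCODE model. Cyp3a44 differs from the element by C7A, counted from 1 at the 5′ end of the 9 bases. The element was present both in Cyp3a11, whose level was not lower in SS, and in Cyp3a16, Cyp2c40 and Cyp2c69, whose levels were lower in every SS library than in any AS library. Other searched elements were present as follows, both strands counted. TATAAA was found in 24 member promoters (47.1%, against 13.0% of all promoters), and AGGTCA, a nuclear receptor half-site, in 14 (27.5% against 13.8%). GCGTG, the core to which the aryl hydrocarbon receptor binds, was found in 8 (15.7% against 28.2%), TTCNNNGAA, the form bound by STAT5, in 2 (3.92% against 7.18%), and GTTAATNAT, a form bound by HNF1, in 0 (against 0.781%). Pairs of half-sites in the same direction, each AGGTCA or AGTTCA and spaced by 1 or by 4 bases, were in 0 (against 0.0666% and 0.0222%). A pair that holds AGGTCA would also count as AGGTCA. Matches describe letters only, and the windows overlap between near copies.

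Across the members, levels were lower in SS than in AS for most, while 1 gene, Cyp2c55, passed the test, and it was higher. With edgeR (quasi-likelihood test, Benjamini-Hochberg adjustment over all 12622 genes), 1 of 44 members was called higher (0.911% of all genes were) and 0 were called lower (0.0555% of all genes were). At an unadjusted p under 0.05, 20 members were lower (45.5%, against 3.58% of all genes) and 2 were higher (4.55%, against 9.12%). DESeq2 called 12 members lower (0.737% of all genes): Cyp2b9, Cyp2b10, Cyp2b13, Cyp2c37, Cyp2c40, Cyp2c50, Cyp2c54, Cyp2e1, Cyp2f2, Cyp2g1, Cyp2j5 and Cyp3a16. It called 1 member, Cyp2c55, higher (2.85% of all genes). Lower levels are therefore given below as values, with the test beside them.

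The fitted value was lower in SS for 36 of 44 members (81.8%, against 43.7% of all genes), with a median log2 difference, SS minus AS, of -0.68 against 0.08 over all genes. Among the 46 members that reached a mean of 1 CPM, every SS library lay below every AS library for 26 (56.5%, against 8.66% of genes at that level) and above it for 2 (4.35%, against 12.4%). Abundant genes as a whole also had lower values in SS. Of 2986 genes of at least 50 CPM, 722 (24.2%) were separated downward and 129 (4.32%) upward, with a median of -0.24. Of the 34 members at that level, 23 (67.6%) were separated downward and 0 upward, with a median of -0.74. Together, member transcripts came to 31570, 30847 and 29863 CPM in AS and to 23078, 18450 and 19813 CPM in SS.

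**Figure D1:**
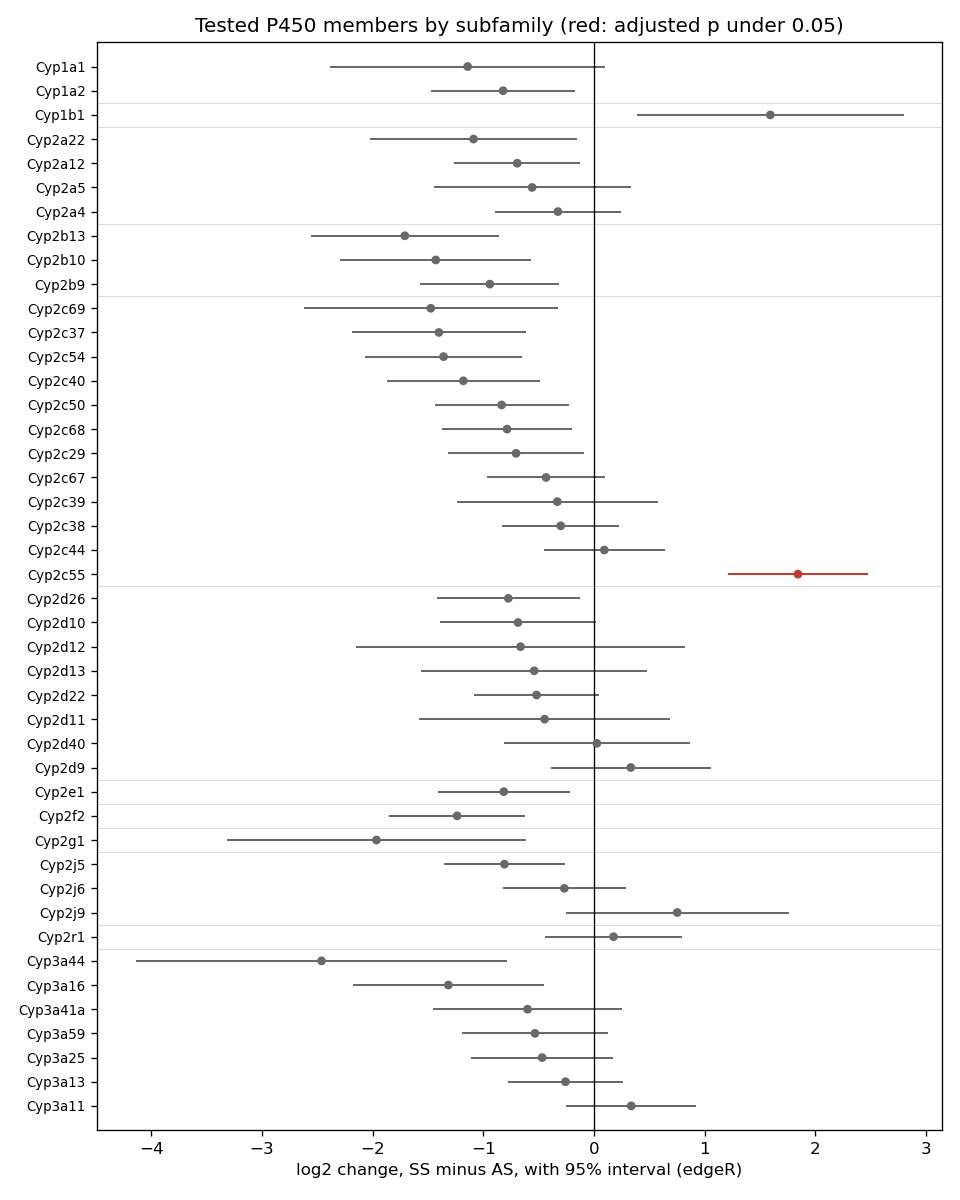
Each point is the log2 difference, SS minus AS, of a tested member with its 95% interval from edgeR, grouped by subfamily, and the vertical line marks no difference. Of 44 members 36 lie left of the line, and Cyp2c55 (red, 1.84) is the only one past the adjusted threshold of 0.05.

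How far these values depend on the yardstick was examined with genes of general hepatocyte function outside the family. All 17 reference genes tested were lower in SS in fitted value (median -0.58, range -0.84 to -0.05), none of them called. In bulk liver, fewer hepatocytes in the sample and less RNA of these genes per hepatocyte cannot be told apart. With the libraries scaled on these genes, the median over all genes moved from 0.08 to 0.69 and that of the members from -0.68 to -0.12, and 23 of 44 members kept a lower value. On that scale 9 members were separated downward (0.635% of genes were) and 5 upward (35.9% of genes were).

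The 9 members that stayed below were Cyp2b13, Cyp2c37, Cyp2c40, Cyp2c54, Cyp2c68, Cyp2c69, Cyp2f2, Cyp2g1 and Cyp3a44. The 5 above were Cyp1b1, Cyp2c44, Cyp2c55, Cyp2r1 and Cyp3a11. Those below include genes known as female-biased in mouse liver (Cyp2b13, Cyp2c40, Cyp2c69 and Cyp3a44), a grouping made after the values were seen. Other members known as female-biased overlapped between groups on that scale, with log2 differences of 0.31 for Cyp2a4, 0.11 for Cyp3a41a, -0.40 for Cyp2b9 and -0.73 for Cyp3a16. On that scale Cyp2a4 had 484, 589 and 625 in AS and 602, 464 and 1038 in SS. Cyp3a41a had 210, 243 and 255 in AS and 201, 91.7 and 471 in SS. SS replicate 3, the highest library for both, had a scaling factor of 0.767, against 0.990 and 0.960 for SS replicates 1 and 2. The 5 members separated upward include both genes that were already separated upward on the scale of all genes.

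**Figure D2:**
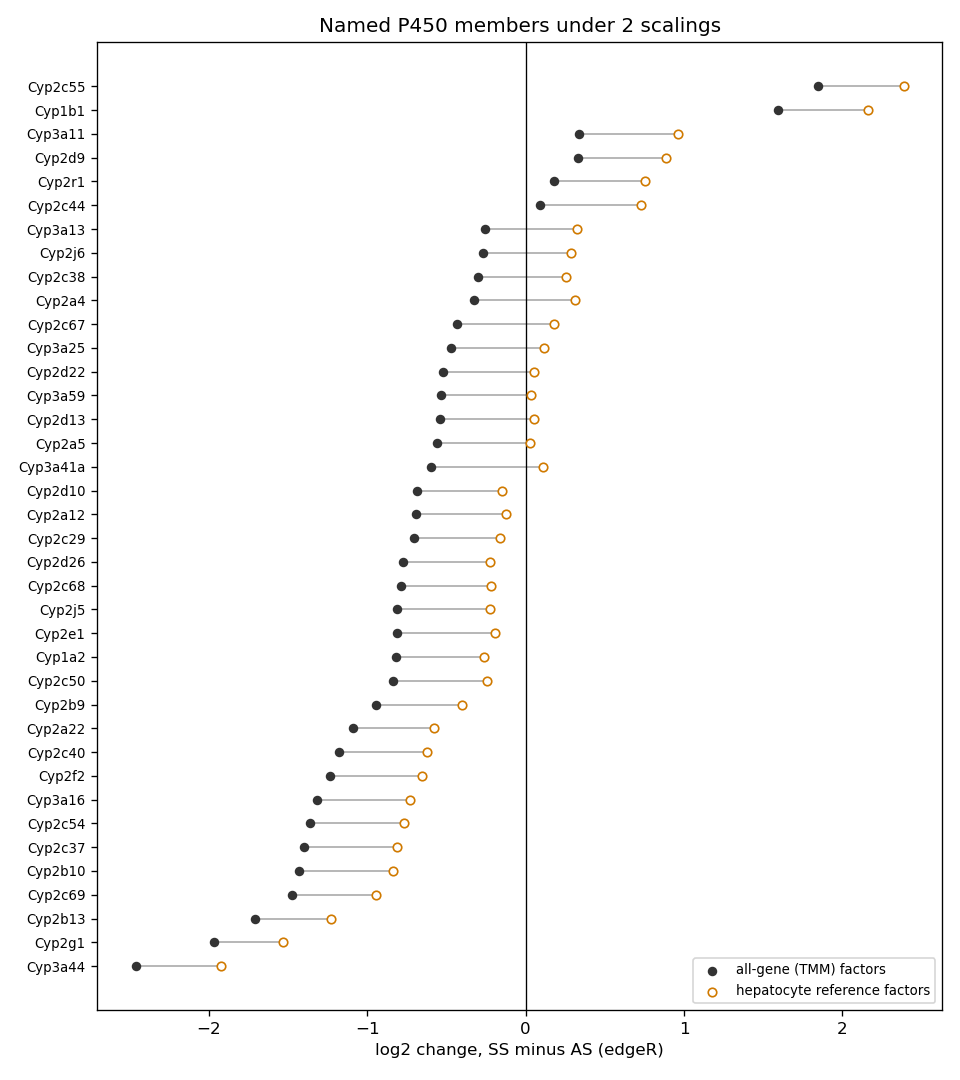
Log2 differences, SS minus AS, of the 38 members that the naming rule takes, with all-gene TMM factors (filled) and with hepatocyte reference factors (open). Every open point lies to the right of its filled point, and 11 members cross from a lower to a higher value while Cyp3a44, Cyp2g1 and Cyp2b13 remain the lowest.

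Several lists of markers of other cell types held genes that were higher in SS. Over all genes, 0.911% were called higher. Summed erythroid precursor markers came to 45.1 to 62.8 CPM in AS and 245 to 476 CPM in SS (3 of 7 tested called higher), monocyte and recruited macrophage markers to 17.7 to 23.2 and 55.9 to 124 CPM (4 of 8), and dividing cell markers to 7.28 to 10.4 and 75.7 to 134 CPM (5 of 6). Kupffer cell (1 of 6), neutrophil (2 of 5) and stellate cell (2 of 8) lists also held called members, whereas lymphocyte (5 tested), sinusoidal endothelial (6) and cholangiocyte (4) lists held 0. Gata1 of the erythroid list and Elane of the neutrophil list had 0 counts in every AS library and reads in every SS library. Marker sums do not measure the share of a cell type in the RNA, and the part of these cell types in the P450 values was not tested.

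**Figure D3:**
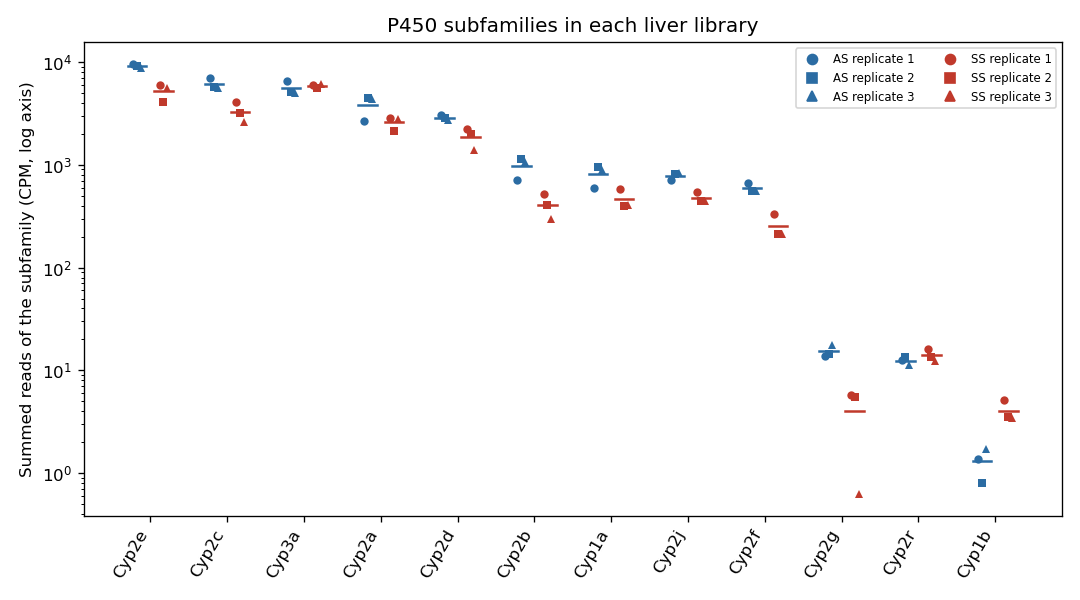
Summed level of each subfamily (CPM, log axis) in the 3 AS (blue) and 3 SS (red) libraries, with horizontal bars at the group means. On this scale of all genes Cyp1a, Cyp2b, Cyp2c, Cyp2d, Cyp2e, Cyp2f, Cyp2g and Cyp2j lie lower in every SS library than in any AS library. Cyp2a, Cyp2r and Cyp3a overlap between groups, and Cyp1b lies higher in SS at a few CPM.

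In the Cyp1 family, the abundant gene was Cyp1a2, which oxidises caffeine and aromatic amines around the central vein. Cyp1a2 had 589, 959 and 888 CPM in AS and 574, 397 and 407 CPM in SS. The highest SS library lay just under the lowest AS library, and the log2 difference of -0.82 (SE 0.293) did not pass edgeR's test (adjusted p = 0.281). Cyp1a1, the most inducible target of the aryl hydrocarbon receptor, was low, at 2.98 ± 0.415 CPM in AS and 1.36 ± 0.457 in SS (SD, n = 3). Cyp1b1, which acts on estradiol and polycyclic hydrocarbons and is known mainly outside hepatocytes, went the other way in value. Its levels were 1.38, 0.805 and 1.72 CPM in AS and 5.15, 3.55 and 3.44 CPM in SS, a log2 difference of 1.59 (SE 0.544) with an adjusted p of 0.257 by edgeR. These groups did not overlap, at a level of a few CPM, and stellate markers were higher in the same libraries (323 to 355 CPM in AS, 393 to 622 CPM in SS), a relation that was not tested.

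The Cyp2a subfamily overlapped between groups as a sum, with 3841 ± 995 CPM in AS and 2589 ± 385 in SS (SD, n = 3). The spread came mainly from Cyp2a5, the coumarin hydroxylase, with 858, 2549 and 2477 CPM in AS and 1459, 991 and 1543 CPM in SS. AS replicate 1 was thus the lowest of all 6 libraries. Without it the Cyp2a5 log2 difference moved from -0.56 to -0.93, with edgeR adjusted p values of 0.581 and 0.292. Cyp2a12, a bile acid and steroid hydroxylase, was more even. Its levels were 1069, 997 and 956 CPM in AS against 705, 655 and 508 CPM in SS (log2 -0.69, adjusted p = 0.301 by edgeR). Cyp2a4, a steroid hydroxylase that is female-biased in mice, was nearly level in AS at 688 ± 15.7 CPM and had 549 ± 108 CPM in SS (SD, n = 3). On the hepatocyte scale Cyp2a4 and Cyp2a5 were higher in SS in value, by 0.31 and 0.025 (log2), with SS replicate 3 the highest library for each. Cyp2a22 had 97.5, 231 and 226 CPM in AS and 141, 59.9 and 60.2 CPM in SS, so that its groups overlapped.

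All 3 tested Cyp2b genes had lower values, and the subfamily sum was 965 ± 226 CPM in AS and 411 ± 113 in SS (SD, n = 3), a ratio of 0.426. Cyp2b13, a female-biased gene, had 279.5, 454 and 409.6 CPM in AS and 169, 122 and 58.9 CPM in SS. Its log2 difference of -1.71 (SE 0.384) had an edgeR adjusted p of 0.0768 and a DESeq2 adjusted p of 0.000594, and it ran from -2.08 to -1.40 as each library was left out. Cyp2b9, its female-biased neighbour on chromosome 7, had 395, 585 and 558 CPM in AS and 324, 270.0 and 207 CPM in SS (log2 -0.94, edgeR adjusted p = 0.193). Per 100 reads of Cyp2b9, Cyp2b13 gave 70.8, 77.7 and 73.5 reads in AS but 52.2, 45.2 and 28.5 in SS, a ratio within the library that no scaling can move. Cyp2b10, the classical CAR target, had 33.4, 91.7 and 87.2 CPM in AS and 29.8, 17.6 and 31.4 CPM in SS. Its lowest AS library stood only slightly above the highest SS library, and the log2 difference was -1.43 (SE 0.39, edgeR adjusted p = 0.146).

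The Cyp2c subfamily, 14 members of which 12 were tested, holds the epoxygenases of arachidonic acid along with drug-metabolising enzymes. Its summed level was 7045, 5766 and 5540 CPM in AS and 4037, 3157 and 2630 CPM in SS, a ratio of group means of 0.535. Cyp2c55 rose against this background. It lies at chr19:39007019-39042693 on the plus strand of mm10 and encodes an enzyme that hydroxylates arachidonic acid and is known from the colon and from livers exposed to CAR and PXR activators.

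Cyp2c55 had 7.49, 10.1 and 11.4 CPM in AS and 35.2, 40.2 and 28.8 CPM in SS, from 65, 63 and 139 reads and 267, 555 and 368 reads. Every SS library was above every AS library, 3.59-fold in the fit. The log2 difference was 1.84 (SE 0.287, 95% interval 1.21 to 2.48), with an edgeR adjusted p of 0.0169, a DESeq2 adjusted p of 7.58e-06 and a limma-voom adjusted p of 0.0468. Only 0.514% of its 50-base transcript stretches occur in another gene, mostly in a Cyp2c pseudogene. Per 100 reads of Cyp2c29, it gave 0.631, 0.721 and 0.818 reads in AS and 3.60, 4.70 and 4.74 in SS. The log2 difference ran from 1.68 to 1.98 as each library was left out, and the adjusted p then ran from 0.0145 to 0.116. It stayed past 0.05 only without SS replicate 3, and was 0.0853, 0.116 and 0.072 without AS replicates 1, 2 and 3, and 0.0504 and 0.086 without SS replicates 1 and 2. With AS replicates 2 and 3 summed to 1 library, it was 0.101.

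The other abundant Cyp2c genes had lower values. Cyp2c29, a CAR-responsive epoxygenase, had 1187, 1407 and 1390 CPM in AS and 979.9, 857 and 608 CPM in SS (log2 -0.70, edgeR adjusted p = 0.328). Cyp2c37, another epoxygenase, had 899, 812 and 742 CPM in AS and 483, 185 and 260.5 CPM in SS. The gap between the groups was wide, yet SS replicate 1 stood well above the other SS libraries. Its log2 difference of -1.40 (SE 0.355, edgeR adjusted p = 0.116) became -1.88 without that library, and with an adjusted p of 0.0478 it then passed (0.116% of all genes were called lower in that fit). Cyp2c54 had 508, 398 and 369 CPM in AS and 241, 118 and 139 CPM in SS (log2 -1.36, SE 0.321, edgeR adjusted p = 0.0925), and Cyp2c50 had 987 ± 54.7 and 554 ± 142 CPM (log2 -0.83, SD, n = 3). Cyp2c38 (58.9 and 47.8 CPM) overlapped between groups. Cyp2c44, listed by RefSeq as a synonym of Cyp2c23 and an epoxygenase of liver and kidney, was nearly level in value at 270 ± 5.90 CPM in AS and 289 ± 48.2 in SS (SD, n = 3). Its log2 difference was 0.09 (SE 0.246) and turned to -0.06 without SS replicate 3.

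Cyp2c40, Cyp2c67, Cyp2c68 and Cyp2c69 form a block of near copies on chromosome 19, the one whose promoter windows are printed above. Cyp2c69 had 1537, 601 and 603 CPM in AS and 453, 412 and 121 CPM in SS. AS replicate 1 was far above and SS replicate 3 far below the rest of their groups, and without AS replicate 1 the log2 difference moved from -1.47 to -0.89 (edgeR adjusted p = 0.275 and 0.553). Per 100 reads of Cyp2c68, Cyp2c69 gave 204, 95.2 and 100 reads in AS and 104, 98.8 and 40.4 in SS, so that this ratio overlapped between groups. Cyp2c40 had 555, 375 and 381 CPM in AS and 248, 201 and 130.2 CPM in SS (log2 -1.18, edgeR adjusted p = 0.132). Cyp2c68 had 662 ± 81.9 CPM in AS and 384 ± 73.7 in SS, and Cyp2c67 had 199 ± 20.7 and 148 ± 19.2 CPM (SD, n = 3). Of their 50-base transcript stretches, 72.1% (Cyp2c40), 54.8% (Cyp2c69), 52.8% (Cyp2c67) and 43.3% (Cyp2c68) occur in another gene, so the division of reads among these genes is uncertain. Cyp2c67, like Cyp2c38, had a higher value in SS on the hepatocyte scale (0.18 and 0.26). Over all subfamilies, 20 members had more than 25% of their stretches in another gene. They include Cyp2a5 (40.8%), Cyp2d10 (40.5%), Cyp2a4 (38.0%), Cyp2c37 (30.1%), Cyp3a44 (26.5%) and Cyp2c54 (25.7%). Records with several alignments were also more frequent in AS (18.4% to 22.8%) than in SS (14.7% to 16.2%), and the effect on near copies was not tested.

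The Cyp2d subfamily, counterpart of the human debrisoquine hydroxylase, came to 2883 ± 134 CPM in AS and 1866 ± 424 in SS (SD, n = 3). Cyp2d26 had 1441, 1269 and 1198 CPM in AS and 977, 774 and 534 CPM in SS (log2 -0.77, edgeR adjusted p = 0.311), and Cyp2d10 had 1107, 861 and 816 against 713, 666 and 351 CPM. Both were separated, whereas Cyp2d22 at 319 ± 56.8 and 222 ± 23.3 CPM had its lowest AS library only just above the SS libraries and a log2 difference of 0.051 on the hepatocyte scale. Cyp2d13, which RefSeq lists as a transcribed pseudogene, ranged from 67.6 to 244 CPM in AS and from 69.2 to 151 CPM in SS. Cyp2d9, a male-biased steroid hydroxylase, was not lower in value: it had 89.7, 121 and 121 CPM in AS and 86.3, 207 and 124 CPM in SS. Its log2 difference of 0.33 (SE 0.327) rested on SS replicate 2 and was -0.08 without it.

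Cyp2e1, which oxidises ethanol and acetaminophen around the central vein, was the most abundant member per length in both groups. Its level was 9582, 9109 and 8838 CPM in AS and 5988, 4097 and 5562 CPM in SS. The groups were far apart, with a log2 difference of -0.82 (SE 0.269), an edgeR adjusted p of 0.245 and a DESeq2 adjusted p of 0.0271. Per kilobase of transcript, AS had 5006 CPM and SS had 2846, ahead of Cyp3a11 at 1608 and 2031. On the hepatocyte scale its difference was -0.20, and that of Cyp1a2 -0.26. Their ratio overlapped between groups, with 8.90 ± 2.40 reads of Cyp1a2 per 100 of Cyp2e1 in AS and 8.86 ± 1.34 in SS (SD, n = 3).

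Cyp2f2, which activates naphthalene and marks club cells of the lung and periportal hepatocytes, had 672, 561 and 551 CPM in AS and 330.0, 214 and 213 CPM in SS. The groups were well apart, with a log2 difference of -1.24 (SE 0.279, edgeR adjusted p = 0.0768, DESeq2 adjusted p = 0.000772) and a range from -1.48 to -1.14 over left-out libraries. Per 100 reads of Cyp2e1, Cyp2f2 gave 7.01, 6.15 and 6.23 reads in AS and 5.51, 5.22 and 3.82 in SS. Cyp2g1, best known from the olfactory mucosa, had 13.9, 14.5 and 17.7 CPM in AS and 5.81, 5.51 and 0.626 CPM in SS. All SS libraries were low and SS replicate 3 almost empty, with a log2 difference of -1.97 (SE 0.611, edgeR adjusted p = 0.207).

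Of the 7 Cyp2j genes, 3 were tested. Cyp2j5, an arachidonic acid epoxygenase of liver and kidney, had 622, 724 and 731 CPM in AS and 434, 369 and 382 CPM in SS (log2 -0.81, SE 0.245, edgeR adjusted p = 0.194). It was separated with little spread in either group. Cyp2j6 had 81.1 ± 5.16 CPM in AS and 67.4 ± 17.3 in SS (SD, n = 3), and overlapped. Cyp2j9 had 4.38, 5.96 and 10.4 CPM in AS and 19.0, 7.98 and 8.45 CPM in SS, where only SS replicate 1 stood out. Cyp2r1, a vitamin D hydroxylase of the liver, was close to level in value, at 12.5 ± 1.13 CPM in AS and 14.1 ± 1.95 in SS (log2 0.18, 95% interval -0.44 to 0.80, edgeR adjusted p = 0.816, n = 3).

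In the Cyp3a subfamily 6 of 7 tested genes were lower in fitted value (median log2 -0.53). Among subfamilies that summed to at least 50 CPM, it alone had a mean sum that was not lower in SS. That sum was 6518, 5134 and 5022 CPM in AS and 5979, 5571 and 6080 CPM in SS. Cyp3a11, the main PXR target and a broad oxidase of drugs, steroids and bile acids, made up most of it. Cyp3a11 had 4627, 3385 and 3296 CPM in AS and 4586, 4758 and 4935 CPM in SS. The groups overlapped through AS replicate 1, and the log2 difference was 0.34 (SE 0.266, 95% interval -0.25 to 0.92, edgeR adjusted p = 0.615).

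Relative to Cyp2e1, Cyp3a11 was higher in every SS library. Per 100 reads of Cyp2e1, it gave 48.3, 37.2 and 37.3 reads in AS and 76.6, 116 and 88.7 reads in SS, or 40.9 ± 6.39 against 93.8 ± 20.3 (SD, n = 3). This pair of genes was chosen after their values were seen and is given without a test. Its share of all Cyp3a reads was 71.0%, 65.9% and 65.6% in AS and 76.7%, 85.4% and 81.2% in SS. On the hepatocyte scale Cyp3a11 was separated upward, with a log2 difference of 0.96 (95% interval 0.45 to 1.47, edgeR adjusted p = 0.0684).

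The remaining tested Cyp3a genes had lower values on the scale of all genes, and 4 of them (Cyp3a13, Cyp3a25, Cyp3a41a and Cyp3a59) had higher values on the hepatocyte scale. Cyp3a44, a female-biased gene, had 372, 132 and 111 CPM in AS and 76.5, 26.4 and 9.39 CPM in SS. The groups were separated but each was widely spread, and the log2 difference of -2.46 (SE 0.742, edgeR adjusted p = 0.211) ran from -3.52 without SS replicate 1 to -1.72 without AS replicate 1. Cyp3a16, described in fetal and female liver, had 306, 179.8 and 182 CPM in AS and 146, 57.7 and 65.1 CPM in SS (log2 -1.32, SE 0.389, edgeR adjusted p = 0.18). Per 100 reads of Cyp3a11, Cyp3a16 gave 6.61, 5.31 and 5.53 reads in AS and 3.18, 1.21 and 1.32 in SS, and Cyp3a44 gave 8.04, 3.89 and 3.38 against 1.67, 0.555 and 0.190. Both ratios were lower in every SS library.

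Cyp3a41a, likewise female-biased, had 290.1, 288 and 284 CPM in AS and 182, 87.4 and 298 CPM in SS, so that SS replicate 3 was as high as AS. Of its 50-base stretches 98.6% occur elsewhere, and 93.7% of all its stretches occur in Cyp3a41b, which had 0 counts, so the reads of these copies cannot be told apart. Cyp3a25 had 737 ± 83.5 CPM in AS and 533 ± 163 in SS, and Cyp3a59 had 93.5 ± 22.9 and 64.7 ± 20.9 CPM (SD, n = 3), both with overlapping groups. Cyp3a13, expressed in liver and gut, had 214.4, 260.0 and 252 CPM in AS and 196, 214.2 and 198 CPM in SS, where the closest libraries nearly touched.

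**Figure D4:**
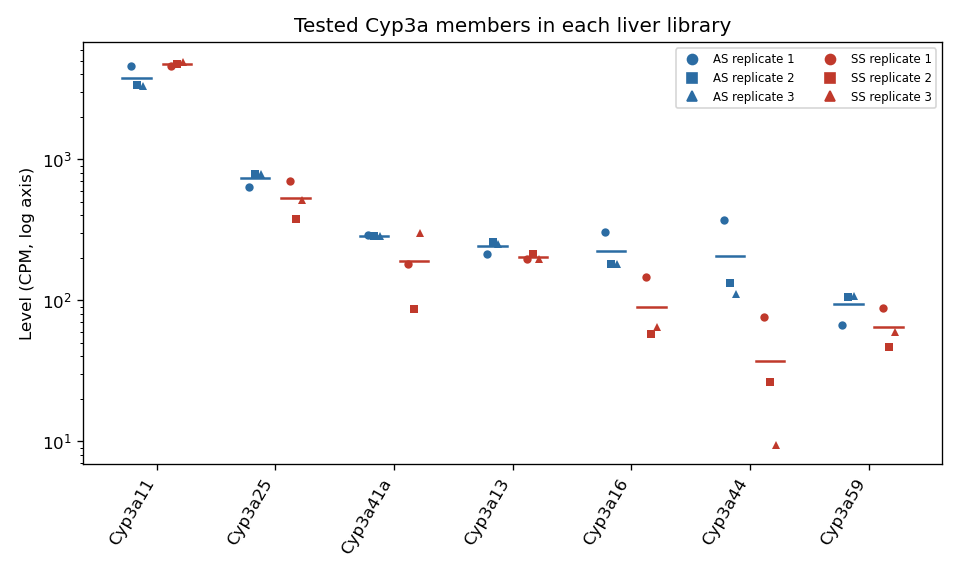
Level of the 7 tested Cyp3a members (CPM, log axis) in each AS (blue) and SS (red) library, with bars at the group means. Cyp3a11 sits at 3296 to 4935 CPM with overlapping groups, while Cyp3a16 and Cyp3a44 lie lower in every SS library and Cyp3a41a overlaps through SS replicate 3.

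Genes that supply the P450 enzymes with electrons and heme, or regulate them, gave 0 calls by edgeR in 3 lists. Over all genes, 0.911% were called higher and 0.0555% lower, and short lists can hold 0 calls at these shares. Of 7 electron transfer genes, 0 were called and all were lower in fitted value (median -0.46). Among all genes 43.7% were lower, and all 17 hepatocyte reference genes tested were (median -0.58). Por, the P450 oxidoreductase, had 414, 559.9 and 536 CPM in AS and 328, 281 and 813 CPM in SS, with SS replicate 3 highest of all (log2 -0.09, edgeR adjusted p = 0.943). Cyb5a, cytochrome b5, had 1872 ± 92.7 CPM in AS and 1133 ± 113 in SS (log2 -0.72, adjusted p = 0.264). Of 8 heme synthesis genes 0 were called (median -0.05). Alas1, the rate-limiting step of hepatic heme synthesis, had 309 ± 105 and 289 ± 168 CPM and SS replicate 3 at 481 CPM (SD, n = 3).

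Among 20 transcription regulators of P450 genes 0 were called, 10 were higher and 10 lower in fitted value (median -0.01). The log2 differences were 0.10 for Nr1i2 (PXR), -0.12 for Nr1i3 (CAR), 0.66 for Ahr, 0.17 for Hnf4a and -0.52 for Cux2, a female-biased repressor. Their edgeR adjusted p values were 0.909, 0.867, 0.422, 0.835 and 0.565. Nr1d1, a clock repressor, had the lowest p of the list, at 69.7 ± 11.1 CPM in AS and 35.0 ± 14.4 in SS (log2 -0.99, edgeR adjusted p = 0.208, n = 3). Targets of the same receptors outside the family gave no calls (of all genes, 0.911% were called higher and 0.0555% lower). Of 4 tested aryl hydrocarbon receptor targets 3 were higher in fitted value, led by Gsta1 (2.57 ± 2.14 and 13.7 ± 6.17 CPM), and of 12 PXR and CAR targets 5 were, led by Gstm3 (122 ± 49.1 and 376 ± 230 CPM).

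Genes known for their position in the lobule, outside the family, gave no calls (of all genes, 0.911% were called higher and 0.0555% lower). Of 14 pericentral genes 0 were called, 9 were higher and 5 lower in fitted value (median 0.15), with Rgn at 2013 ± 121 CPM in AS and 1193 ± 215 in SS (SD, n = 3). Of 13 periportal genes 0 were called, 3 were higher and 10 lower (median -0.49), with Hal, the histidine ammonia-lyase, at 287 ± 14.5 and 146 ± 36.1 CPM. The hepatocyte reference genes had a median of -0.58, and 43.7% of all genes were lower. Among members, the pericentral Cyp1a2 and Cyp2e1 and the periportal Cyp2f2 all had lower values.

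Female-biased genes outside the family also had mostly lower values. Of 15 tested, 12 were lower in fitted value (median -1.15), against 43.7% of all genes. Acot3, a peroxisomal thioesterase, was called lower (0.0555% of all genes were), from 71.0 ± 6.24 CPM to 27.4 ± 6.97 (log2 -1.38, edgeR adjusted p = 0.0434, n = 3). Prom1, which is also a progenitor and duct cell gene, was called higher (0.911% of all genes were), from 1.91 ± 0.634 to 22.9 ± 11.9 CPM (log2 3.56, edgeR adjusted p = 0.0103, n = 3). Of 13 male-biased genes 7 were lower (median -0.20), and C6, a complement gene that also stands in the Kupffer cell list, was called higher (log2 1.65, edgeR adjusted p = 0.0462).

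The labels give no sex. The Y-linked genes Kdm5d and Uty had 0 counts in all libraries, Eif2s3y had 4 counts in SS replicate 1, Ddx3y had 2 in AS replicate 1 and 1 in SS replicate 3, and Xist was present in every library, at 156, 685 and 705 CPM in AS and 623, 456 and 952 CPM in SS. AS replicate 1, in which Cyp2c69, Cyp3a44 and Cyp3a16 were highest and Cyp2a5 and Cyp2b10 low within AS, thus had the lowest Xist level. The summed male-biased genes came to 1588 CPM in that library and 603 to 799.7 CPM in the other 5. Most of the 1588 CPM came from Serpina1e (708), Gstp1 (367) and Cyp7b1 (294), while Cyp4a12a and Hsd3b5 had 1.15 and 1.38 CPM there. The part of the male-biased genes in the member values was not tested. Of the listed transcription regulators, Dbp and Tef were also lowest within AS in AS replicate 1. Dbp had 7.95, 121 and 125 CPM in AS and 44.6, 16.1 and 68.2 CPM in SS. Tef had 29.9, 182 and 176 CPM in AS and 80.2, 41.8 and 201 CPM in SS. Others went the other way, such as Cebpa, highest in AS replicate 1 (422, 286 and 291 CPM in AS). A relation of these regulators to the member values was not tested. SS replicate 3 was the lowest library for Cyp2c69, Cyp3a44, Cyp2b13 and Cyp2g1. Leaving out either of these libraries alone gave 0 members called lower by edgeR. Leaving out both, an alternative chosen with earlier results of these data known, gave 11 called lower (2.49% of all genes) and 1 higher (2.72%).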

How the data were processed

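The authors deposited raw read counts per gene symbol, 1 table per library. Alignment used HISAT2 and mm10 and counting used HTSeq, per the submitters' processing notes. The sources used here do not give versions, annotation or strand setting, so antisense partners cannot be told apart. HTSeq's counter lines were kept out of library sizes: 40.7% to 53.9% of records per library had no gene and 14.7% to 22.8% aligned to several places.

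The members and gene lists were chosen with earlier results of these data known. Counts were filtered with filterByExpr (minimum count 10, minimum total 15), scaled by TMM and tested with edgeR 4.0.16 (R 4.3.3; robust quasi-likelihood F-test, two-sided, Benjamini-Hochberg over all genes). SE came from the F statistic, and intervals are 95%. Members were named if called, if at a mean of at least 50 CPM, if lowest in p within a subfamily, or if separated at 5 CPM or more. From the lists, Por, Alas1, Nr1i2, Nr1i3, Ahr, Hnf4a, Cux2 and Xist were named, with called genes or else the lowest p. Some genes this rule takes are not reported here. Other names were chosen after values were seen. The gene pairs compared by read ratio were not fixed in advance, and the ratios were not tested.

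Alternatives were other scalings, filters, a replicate block, DESeq2 1.42.0, limma-voom (limma 3.58.1), left-out libraries and AS replicates 2 and 3 summed. On counts simulated for the comparison of SS with AS (12622 genes, 200 changed, 5 runs), edgeR found 8.4% of 2-fold and 67% of 4-fold changes, with 7 false calls on average. Shared stretches came from GENCODE transcripts on mm10, promoters from RefSeq (GRCm38.p6, the same build). Counts are of reads, not of unique molecules.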

Additional observations from a re-analysis of the deposited data

How the results depend on the processing

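Results were recomputed under 18 alternatives. Among 684 recomputed differences of the 38 named members, 624 kept direction and side of the threshold, 39 newly passed it, 6 no longer passed and 15 reversed. The 1 member called higher became 0 with AS replicates 2 and 3 summed (0.236% of all genes) and ran from 0 to 1 over left-out libraries (0.167% to 0.659%). The 0 called lower became 4 with no filter (0.155% of all genes), 12 with DESeq2 (0.737%) and 11 without both AS replicate 1 and SS replicate 3 (2.49%). Over left-out libraries 0 to 1 were called lower (0% to 0.116%). The 26 members separated downward (8.66% of genes) became 17 on library totals (2.86%) and 9 on hepatocyte reference factors (0.635%). They ran from 26 to 33 over left-out libraries (11.5% to 15.8%) and were 35 without both AS replicate 1 and SS replicate 3 (24.2%). With fewer libraries the share of all genes thus rose as well. The 2 separated upward (12.4% of genes) became 5 on library totals (21.1%) and 5 on hepatocyte factors (35.9%). They were 6 without both AS replicate 1 and SS replicate 3 (28.4%), and 2 to 4 over left-out libraries (14.8% to 20.2%). The median of -0.68 was -0.42 on library totals, -0.12 on hepatocyte factors, and -0.81 to -0.58 over left-out libraries. On hepatocyte factors 11 of the named members reversed: Cyp2a4 (0.31), Cyp2a5 (0.025), Cyp2c38 (0.26), Cyp2c67 (0.18), Cyp2d13 (0.054), Cyp2d22 (0.051), Cyp2j6 (0.29), Cyp3a13 (0.33, and 0.0093 on library totals), Cyp3a25 (0.12), Cyp3a41a (0.11) and Cyp3a59 (0.032). Cyp2c39 (0.29) and Cyp2d11 (0.14), outside the naming rule, did too. On hepatocyte factors SS replicate 3 (factor 0.767) was the highest library for each of these except Cyp2c38, Cyp2j6 and Cyp3a59. Over left-out libraries Cyp2c44 ran from -0.063 (without SS replicate 3) to 0.16, and was -0.054 without that library and AS replicate 1, and Cyp2d9 ran from -0.082 (without SS replicate 2) to 0.58. On these scales the shift of all genes shows in the values. For the other settings the cause was not tested.

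With the replicate number as a block, 11 members were called lower (0.737% of all genes) and 1 higher (2.91%). The numbers share only a label: the deviations of same-numbered libraries correlated at 0.05, -0.12 and 0.19, and AS replicate 1 correlated best with SS replicate 2 (0.24). At this depth and spread, few 2-fold differences would pass, so lower values that miss the threshold are not shown to be equal.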

Other observations

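Of the 12 members under the filter, 3 Cyp2j genes of chromosome 4 had reads almost only in SS replicate 1. Cyp2j12 had 41 reads there and 1 in the other 5 libraries together, Cyp2j8 had 26 and 3, and Cyp2j13 had 8 and 0. Of the 3 tested Cyp2j genes on that chromosome, Cyp2j9 was highest in this library, at 19.0 CPM, Cyp2j6 was level with AS replicate 1 at 85.0 CPM, and Cyp2j5, at 434 CPM, was below every AS library. Cyp2c66, on chromosome 19, had 9 reads in SS replicate 1 and 1 elsewhere. SS replicate 1 had the largest share of records outside genes, 53.9% against 40.7% to 43.8% in the other libraries, and summed cholangiocyte markers of 249 CPM against 86.4 to 139.9 CPM. A relation of these values to the reads of the 4 genes was not tested.

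P450 genes outside families 1 to 3 also had mostly lower values. Of 19 liver genes of other families, 0 were called, 17 were lower in fitted value (median -0.40) and 2 higher. Over all genes 43.7% were lower in fitted value, 0.911% were called higher and 0.0555% were called lower. The 17 hepatocyte reference genes tested were all lower, with a median of -0.58, so a decrease particular to P450 genes is not shown. The lowest p was that of Cyp7b1, the oxysterol hydroxylase of the alternative bile acid pathway and a male-biased gene. It had 294, 100.4 and 98.3 CPM in AS and 67.3, 21.8 and 17.8 CPM in SS (log2 -2.21, SE 0.583, edgeR adjusted p = 0.137).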
